A study of Mus musculus with 12 samples.

Results

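Small intestine without injury was compared between mice labelled as lacking Piezo1 in intestinal epithelial cells (CKO control, 3 libraries) and their floxed control mice (flox control, 3 libraries). These 6 of the 12 libraries of the series were chosen by their titles, and the other 6 came from the same 2 genotypes after necrotizing enterocolitis (NEC) had been induced. Both genotypes were C57BL/6J and both carried the floxed allele by label, and no agent was given to either group according to the labels. The labels name no Cre line, age, sex or gut region. They do not state that each library is 1 mouse, so each p-value measures the spread between libraries, which may be technical. RNA from whole tissue was sequenced, so that a group of genes read lower can reflect fewer cells of a type or less RNA per cell, which cannot be told apart. FPKM are fragments counted on a gene, scaled to its length and to a size set for each library. Of the 54532 genes in the table, 13300 had at least 1 FPKM in at least 3 of these 6 libraries and were tested.

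Piezo1 is a channel in the plasma membrane that opens when the membrane is stretched and lets Ca2+ into the cell. Raised Ca2+ binds calmodulin, which activates the kinase CaMKII and the phosphatase calcineurin. In the intestine the channel has been studied in enterocytes, goblet cells and enteroendocrine cells, where stretch from the gut content and from cell crowding is sensed. The comparison asks what the deletion does to the tissue before any injury, which is the baseline for the NEC experiment named in the study's title.

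Depth was 14725734 to 16821130 reads per library, recovered from FPKM and gene length. Genotype was split along the leading principal component (42.1% of variance), with flox control 1 to 3 at -34.7, -26.6 and -9.00 and CKO control 1 to 3 at 15.6, 32.6 and 22.1. A second component (27.3%) set flox control 3 (-33.1) and CKO control 3 (-23.0) apart from the other 4 libraries (9.38 to 18.4). Genes with a known place along the small intestine differed in flox control 3. Fabp1, a fatty acid binding protein of the proximal part, had 314, 771 and 0.501 FPKM in flox control 1 to 3 and 327, 261 and 104 in CKO control 1 to 3. Fabp6, the bile acid binding protein of the ileum, had 45.0, 28.2 and 488 FPKM in flox control and 17.0, 31.0 and 58.2 in CKO control. Gata4, a transcription factor of the proximal part, had 10.8, 14.8 and 0.923 FPKM against 9.24, 8.33 and 14.4. Flox control 3 was thus low for both proximal genes and high for the ileal one. Over the whole list of distal intestine genes, CKO control 3 was high as well. Summed FPKM was 2690 in flox control 3 and 2375 in CKO control 3, against 1134 to 1676 in the other 4 libraries. Over the list of proximal genes, flox control 3 was lowest, at 4380 FPKM against 5926 to 8263 in the other 5 libraries. Flox control 1 had Xist at 55.7 FPKM and no read of the Y-linked Uty, Kdm5d, Eif2s3y and Ddx3y, and the other 5 libraries had Xist at 0.0270 to 0.0850 FPKM.

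One gene passed an adjusted p of 0.05 in the 6 control libraries (0.00752% of those tested), and 3849 genes (28.9%) were under an unadjusted p of 0.05. That gene was Gm25637, a predicted small nuclear RNA of 107 bases at chr4:41050220-41050326 (GRCm38, plus strand), named here after its values were seen. It had 7, 10 and 13 reads in flox control and none in CKO control (adjusted p = 0.0428), and it was listed at 0 in all 6 NEC libraries. It passed the filter only through flox control, the group where it was high, so this call carries that limit. The next adjusted p was 0.0547, shared by 295 genes, of which 227 were higher in CKO. At an adjusted p under 0.10, a threshold taken after the data were seen, 1489 genes were higher in CKO (11.2%) and 651 were lower (4.89%). All 3 CKO libraries lay above all 3 flox libraries for 2906 genes (21.8%) and below them for 1685 (12.7%), or 34.5% in either direction. These shares are the common background for the gene groups described here, and they are not matched for level or length. In 5 equal groups of nuclear protein-coding genes by mean FPKM, the share above was 9.20%, 18.7%, 28.7%, 33.0% and 30.0% from lowest to highest. For groups of well-expressed or long genes, 21.8% is therefore a low background. The median difference over all genes tested was 0.04, on the scale of log2(FPKM + 1) used for every difference here. When all 12 libraries were fitted together, so that the spread was estimated from 4 groups, 1458 genes were higher (9.85%) and 593 lower (4.0%) at an adjusted p under 0.05. Since no other gene passed with the 6 libraries alone, differences are given as values, and the adjusted p of the fit over 12 libraries is given beside them as such. The single call also rested on which libraries were used, since 830 genes passed without flox control 3 and none without any 1 of the other 5.

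Piezo1 itself (chr8:122481698-122551329, minus strand) did not separate the genotypes. It had 1.38, 1.44 and 1.09 FPKM in flox control and 1.71, 1.03 and 0.926 in CKO control. The groups overlapped, with a difference of -0.06 ± 0.19 (SE) and an adjusted p of 0.846. Piezo1 was low in all 6 libraries, and which of its cells were epithelial was not measured. The labels do not say which exons were deleted, so reads over the whole gene check the deletion only in part. Around the gene, 18 neighbours within 500000 bases were tested. All CKO libraries were above all flox libraries for 3 of them and below for 3, and their median difference was 0.02. Of 10 tested mechanosensitive channels, 2 had all CKO libraries above and none all below (median 0.11). Kcnk5, a potassium channel of epithelia, had 10.1, 9.38 and 15.1 FPKM in flox and 17.6, 17.7 and 26.2 in CKO, a difference of 0.78 ± 0.22 (adjusted p = 0.0828, and 0.0237 in the fit over 12 libraries). Tmem63b, a channel opened by swelling of the cell, had 9.34, 9.67 and 8.22 FPKM in flox and 13.1, 12.1 and 10.7 in CKO (0.37 ± 0.12). Piezo2, the other member of the family, stayed under 1 FPKM in each of the 6 libraries.

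The kinase CaMKII, which the study's title names, is built from 4 related genes, of which 3 were tested. Camk2d had 4.25, 4.29 and 6.53 FPKM in flox and 4.84, 5.47 and 7.26 in CKO (0.19 ± 0.20). Camk2g had 10.4, 9.81 and 6.22 FPKM against 7.94, 6.73 and 6.54 (-0.26 ± 0.19). Camk2b had 1.93, 2.97 and 3.40 FPKM against 2.63, 1.92 and 5.61 (0.15 ± 0.31). The groups overlapped for all 3 genes. Camk2a was under the limit for testing, at 0.761, 0.888 and 1.02 FPKM in flox and 0.528, 0.306 and 0.691 in CKO, where every CKO library was below every flox library.

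Of 31 tested genes of Ca2+ and CaMKII signalling, 11 had all CKO libraries above and 2 all below, with a median of 0.22. Their median length was 6936 bases, and of all nuclear protein-coding genes tested with lengths of 4991 to 7223 bases 29.9% had all CKO libraries above, so this count is near that of genes of like length. Orai3, a pore of the channel that refills Ca2+ stores, had 7.71, 9.25 and 10.2 FPKM in flox and 16.1, 15.8 and 17.1 in CKO, 0.79 ± 0.13 apart (adjusted p = 0.0547, and 0.0123 in the fit over 12 libraries). Stim2, which senses the Ca2+ left in those stores, had 3.96, 3.79 and 4.60 FPKM against 5.32, 6.62 and 6.44. Ppp3r1, the regulatory subunit of calcineurin, had 16.7, 21.1 and 25.7 FPKM against 31.3, 37.0 and 40.6 (0.77 ± 0.18). Rcan1, an inhibitor of calcineurin, had 31.3, 35.6 and 41.7 FPKM against 48.4, 64.99 and 56.6. These 4 genes had every CKO library above every flox library. Camk1, a smaller kinase activated by calmodulin, was the reverse, at 5.30, 4.95 and 5.13 FPKM in flox and 3.73, 3.41 and 3.78 in CKO (-0.40 ± 0.11), while its relative Camk1d was higher in CKO (0.72 ± 0.18).

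**Figure D1:**
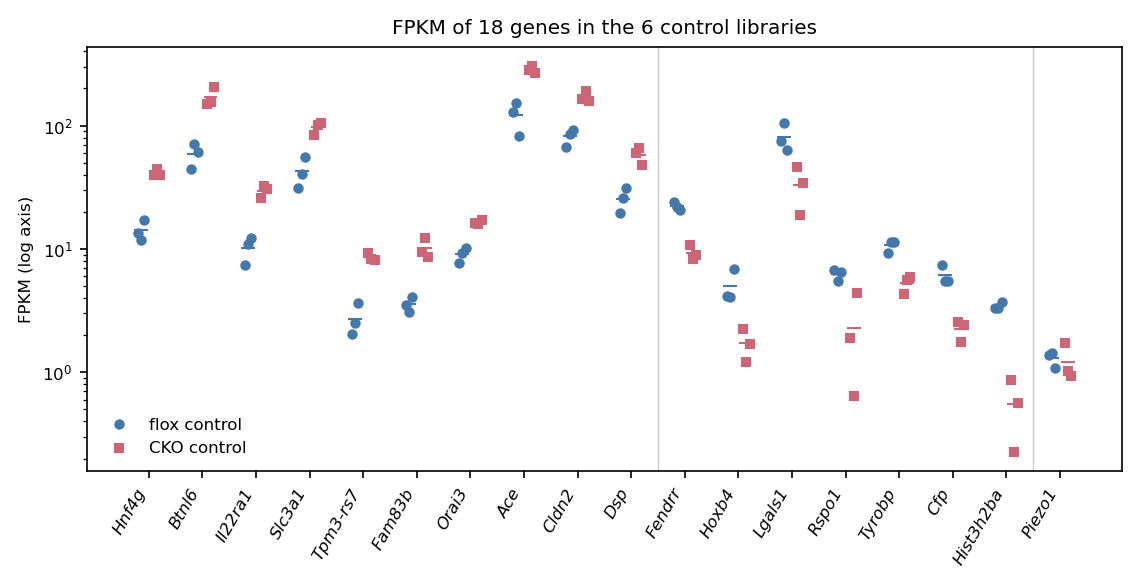
FPKM (log axis) of 18 genes in the 3 flox control libraries (circles) and the 3 CKO control libraries (squares), with a short line at each mean. The first 10 genes stood higher in CKO in every library and the next 7 lower, while the groups overlap for Piezo1 at the right.

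The gene with the smallest p among those higher in CKO was Hnf4g (chr3:3508030-3658052, plus strand), a nuclear receptor that works with Hnf4a to keep enterocytes differentiated. It had 13.5, 11.9 and 17.1 FPKM in flox control and 40.1, 44.5 and 39.7 in CKO control, with a difference of 1.498 ± 0.15 (adjusted p = 0.0547, and 0.00318 in the fit over 12 libraries). Every CKO library was far above the highest flox library. Its partner Hnf4a had 97.5, 107 and 157 FPKM in flox and 143, 150 and 154 in CKO, where the groups overlapped (0.33 ± 0.19). Of 19 tested transcription factors of enterocytes, 8 had all CKO libraries above and 1 all below, and the median was 0.40. Smad4, the shared mediator of BMP and TGF-beta signals, had 11.7, 15.2 and 15.8 FPKM in flox and 20.2, 21.0 and 23.8 in CKO (0.58 ± 0.14). Klf5, a factor of proliferating epithelium, had 27.0, 27.5 and 36.4 FPKM against 42.4, 41.9 and 44.5. Tcf7l2, the effector of Wnt signals in crypts, was the single member with all CKO libraries below, at 3.58, 3.02 and 3.203 FPKM in flox and 2.26, 2.50 and 2.75 in CKO (-0.28 ± 0.12).

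Receptors and surface proteins of the villus were among the other leading genes. Btnl6, a butyrophilin-like protein of enterocytes that resident gamma-delta T cells recognise, had 44.6, 71.3 and 61.1 FPKM in flox and 150, 156 and 205 in CKO (1.53 ± 0.21), and reads of its close relatives may be shared with it. Il22ra1, the epithelial subunit of the IL-22 receptor, had 7.43, 10.97 and 12.3 FPKM against 26.0, 32.5 and 30.4 (1.47 ± 0.19). Adgrg7, an adhesion receptor of enterocytes, had 29.2, 40.7 and 43.8 FPKM against 101, 120 and 65.7. For each of the 3 genes the lowest CKO library was above the highest flox library. The ligand Il22 was at 0 in 5 of the 6 libraries and at 0.0625 FPKM in the other. Tpm3-rs7, a copy of the tropomyosin gene Tpm3 that may take reads from it, had 2.03, 2.52 and 3.65 FPKM against 9.30, 8.27 and 8.15 (1.38 ± 0.17). Fam83b, a scaffold of growth factor signalling, had 3.54, 3.10 and 4.07 FPKM against 9.40, 12.4 and 8.61 (1.27 ± 0.16). Kif3b, a motor subunit, Sacm1l, a lipid phosphatase of the endoplasmic reticulum, Pigt, which helps to attach GPI anchors, and Hbp1, a transcriptional repressor, stood higher by 0.94 to 1.24. Narf, Slc10a5, Prpf38a, Cyb5d1 and Pdxk stood higher by 0.98 to 1.28. In the fit over 12 libraries the adjusted p of all these genes except Adgrg7 was 0.00332 to 0.00713, and that of Adgrg7 was 0.00982.

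Enzymes and transporters of the brush border, the absorptive surface of the enterocyte, stood higher in CKO. Of 21 tested members, 12 had all CKO libraries above and none all below, with a median of 0.63. Ace, a peptidase of the brush border, had 130, 152 and 82.6 FPKM in flox and 282, 303 and 267 in CKO (1.26 ± 0.23). Slc3a1, the heavy chain of the transporter for cystine and dibasic amino acids, had 31.1, 40.4 and 56.2 FPKM against 84.7, 101 and 104 (1.20 ± 0.22). Slc15a1, the carrier of di- and tripeptides, had 4.89, 6.31 and 10.9 FPKM against 13.7, 15.5 and 24.0 (1.19 ± 0.30). The peptidases and the 2 carriers thus had no overlap between groups. Dpp4, a peptidase that removes pairs of residues, had 29.2, 38.6 and 37.1 FPKM against 49.6, 51.8 and 62.3. Lct, the lactase of suckling animals, had 108, 167 and 68.1 FPKM against 154, 151 and 364, and its groups overlapped. Among 16 genes of the microvillus cytoskeleton, 8 had all CKO libraries above and none all below (median 0.48). Eps8, which caps actin filaments, had 13.6, 17.9 and 21.6 FPKM against 27.4, 27.8 and 32.5 (0.71 ± 0.18), and Anks4b, a scaffold of the tip links between microvilli, had 41.3, 45.6 and 55.0 against 63.3, 66.9 and 80.5 (0.56 ± 0.16). Vil1, an actin bundler long used as an enterocyte marker, did not separate the groups (295, 285 and 441 FPKM against 378, 355 and 429).

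Cell junction genes stood higher as well. Of 16 tested genes of adherens junctions and desmosomes, 10 had all CKO libraries above and none all below, with a median of 0.64. Dsp, which ties desmosomes to keratin filaments, had 19.4, 25.7 and 31.5 FPKM in flox and 59.8, 66.0 and 48.3 in CKO (1.17 ± 0.20, adjusted p = 0.0547, and 0.00713 in the fit over 12 libraries). Dsg2, a desmosomal cadherin, had 12.02, 13.7 and 16.2 FPKM against 25.3, 29.8 and 24.7 (0.89 ± 0.14), and its partner Dsc2 had 14.0, 15.1 and 20.2 against 27.6, 36.7 and 30.8 (0.92 ± 0.17). Ctnnb1, beta-catenin, had 59.4, 111 and 117 FPKM against 196, 236 and 180 (1.13 ± 0.27). Both desmosomal cadherins and the plaque protein were therefore above every flox library in each CKO library. Of 21 tested tight junction genes, 11 had all CKO libraries above and none all below (median 0.40). Cldn2, a claudin that forms a pore for cations, had 67.6, 84.8 and 93.0 FPKM against 165, 192 and 158 (1.07 ± 0.16). Ocln, a membrane protein of the tight junction, had 21.5, 25.9 and 32.0 FPKM against 49.4, 59.2 and 51.2 (0.99 ± 0.17). Cldn12 and Cldn4 differed by 0.61 ± 0.14 and 0.69 ± 0.17.

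Genes for several steps of fat handling stood higher. For fat uptake and chylomicron assembly, 9 of 22 tested genes had all CKO libraries above and none all below (median 0.38). Apob, the structural protein of the chylomicron, had 129, 198 and 170 FPKM in flox and 287, 361 and 332 in CKO (0.99 ± 0.19), and Mttp, which loads lipid onto it, had 91.3, 146 and 127 against 200, 205 and 248 (0.85 ± 0.20). Plin3, a coat protein of lipid droplets, had 149, 180 and 165 FPKM against 296, 270 and 266 (0.75 ± 0.13). All 3 genes were above every flox library in each CKO library. In fatty acid oxidation and ketogenesis, 12 of 22 tested genes had all CKO libraries above and 1 all below (median 0.38). Hadha, of the trifunctional protein of beta-oxidation, had 21.996, 27.6 and 31.5 FPKM against 49.2, 46.2 and 54.3 (0.87 ± 0.16). Etfb, the beta subunit of the electron carrier of beta-oxidation, went the other way, with 75.1, 70.8 and 77.2 FPKM against 37.3, 39.7 and 52.1 (-0.79 ± 0.15). Its alpha subunit Etfa was higher in CKO, at 50.001, 63.2 and 64.3 FPKM against 89.5, 87.1 and 95.1 (0.61 ± 0.14), so the 2 subunits of 1 protein differed in opposite directions.

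Sterol genes depended on 1 library. Of 22 tested genes of cholesterol synthesis and sterol transport, 3 had all CKO libraries above and none all below (median 0.34). Without CKO control 3 the count above was 15 (68.2%, against 29.6% of all genes) and the median 0.62. Npc1l1, the carrier of dietary cholesterol, had 84.0, 108 and 91.9 FPKM in flox and 150, 157 and 188 in CKO (0.80 ± 0.15). Insig1, which holds back the sterol response, had 11.9, 16.3 and 13.1 FPKM in flox and 38.5, 38.9 and 10.5 in CKO, and Idi1, an isomerase of cholesterol synthesis, had 1.32, 1.72 and 1.23 against 5.35, 7.06 and 1.03. These 2 genes, named after their values were seen, were high in CKO control 1 and 2 and below every flox library in CKO control 3.

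Lysosomal genes stood higher in CKO, with 13 of 22 tested lysosome and autophagy genes above in all CKO libraries, 1 below, and a median of 0.45. Lamp2, a protein of the lysosomal membrane, had 32.1, 40.6 and 52.8 FPKM in flox and 67.6, 83.8 and 82.0 in CKO (0.90 ± 0.20), and Lamp1 had 287, 408 and 503 against 634, 741 and 702 (0.83 ± 0.22). Smpdl3a, a secreted phosphodiesterase, had 67.7, 110 and 138 FPKM against 205, 256 and 278. Legumain (Lgmn), a lysosomal protease of suckling enterocytes, had 1646, 2035 and 2584 FPKM against 3520, 4437 and 4306 (0.99 ± 0.23), with an adjusted p of 0.0643 and of 0.200 in the fit over 12 libraries.

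Metal transport followed the same direction. Of 15 tested genes for iron, zinc and copper, 8 had all CKO libraries above and none all below (median 0.53). Atp7a, the pump that exports copper from the enterocyte, had 0.408, 0.604 and 0.627 FPKM in flox and 2.57, 2.99 and 1.84 in CKO (1.15 ± 0.18). It passed the filter only through CKO control, the group where it was high, so its value carries that limit. Slc31a1, the copper importer, had 62.1, 74.1 and 61.2 FPKM against 97.2, 110 and 108 (0.67 ± 0.13). Heph, the ferroxidase of iron export, had 19.001, 26.6 and 32.6 FPKM against 44.9, 50.6 and 54.7, and Slc40a1, the iron exporter ferroportin, had 69.1, 71.6 and 97.8 against 109, 148 and 168 (0.82 ± 0.21). Ncoa4, the receptor that sends ferritin to the lysosome, had 7.18, 9.21 and 15.2 FPKM against 21.8, 24.7 and 29.9 (1.25 ± 0.26). Import, export and ferritin turnover thus each had a member with no overlap between groups.

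The promoters of the genes above were searched for 2 short motifs, because Hnf4g led the genes higher in CKO and because lysosomal genes stood higher as a group. The sequences are RefSeq promoters on GRCm38.p6, from 250 bases before to 50 bases after each start, and 9447 of the symbols tested matched one. The motif CAAAGTCCA of HNF4 factors, searched on both strands, was in 0.455% of promoters of the genes with all CKO libraries above, in 0.608% of those with all below, in 0.635% of all genes tested and in 0.475% of all promoters in the table. Its share among all genes higher in CKO was therefore no larger than in the background. By list, 2 of 19 matched promoters of brush border enzymes and transporters held the motif, and 1 of 13 of the microvillus list. None of 18 for fat uptake and chylomicrons and none of 15 for lysosomes held it. These list counts rest on 1 or 2 genes. Of the genes described here, Slc3a1 held it. The palindrome CACGTG, the core of the element found before many lysosomal genes, was in 14.2% of promoters of the genes with all CKO libraries above, 9.47% of those with all below, 11.8% of all genes tested and 7.15% of all promoters. Among the 22 lysosome and autophagy genes tested, 15 matched a promoter and 7 of these held it. The 4 stretches shown, on the plus strand and ending before the start, hold the Slc3a1 motif at chr17:85028268-85028346 and the CACGTG of Lamp1 at chr8:13159060-13159160, of Glb1, which encodes lysosomal beta-galactosidase, at chr9:114400990-114401075, and of Atg5, an autophagy gene, at chr10:44268285-44268338. Motifs are in capitals.
Slc3a1: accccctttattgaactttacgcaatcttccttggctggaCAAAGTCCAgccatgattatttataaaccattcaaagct
Lamp1: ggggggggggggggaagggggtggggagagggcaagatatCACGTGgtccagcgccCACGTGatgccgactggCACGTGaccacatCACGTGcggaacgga
Glb1: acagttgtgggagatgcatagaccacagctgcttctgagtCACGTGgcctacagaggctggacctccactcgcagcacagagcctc
Atg5: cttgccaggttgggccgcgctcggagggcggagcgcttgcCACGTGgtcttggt
Lamp1 held 4 copies between 61 and 10 bases before its start, and the other 3 genes 1 copy each in the stretch shown. All 4 genes had every CKO library above every flox library, Glb1 at 259, 276 and 301 FPKM in flox and 401, 427 and 342 in CKO, and Atg5 at 16.51, 16.9 and 19.9 against 21.9, 27.5 and 24.2. The 4 were picked by hand for display, so their shared direction is no evidence about other genes that hold a motif. A match of letters is a description of the sequence, and binding was not measured.

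**Figure D2:**
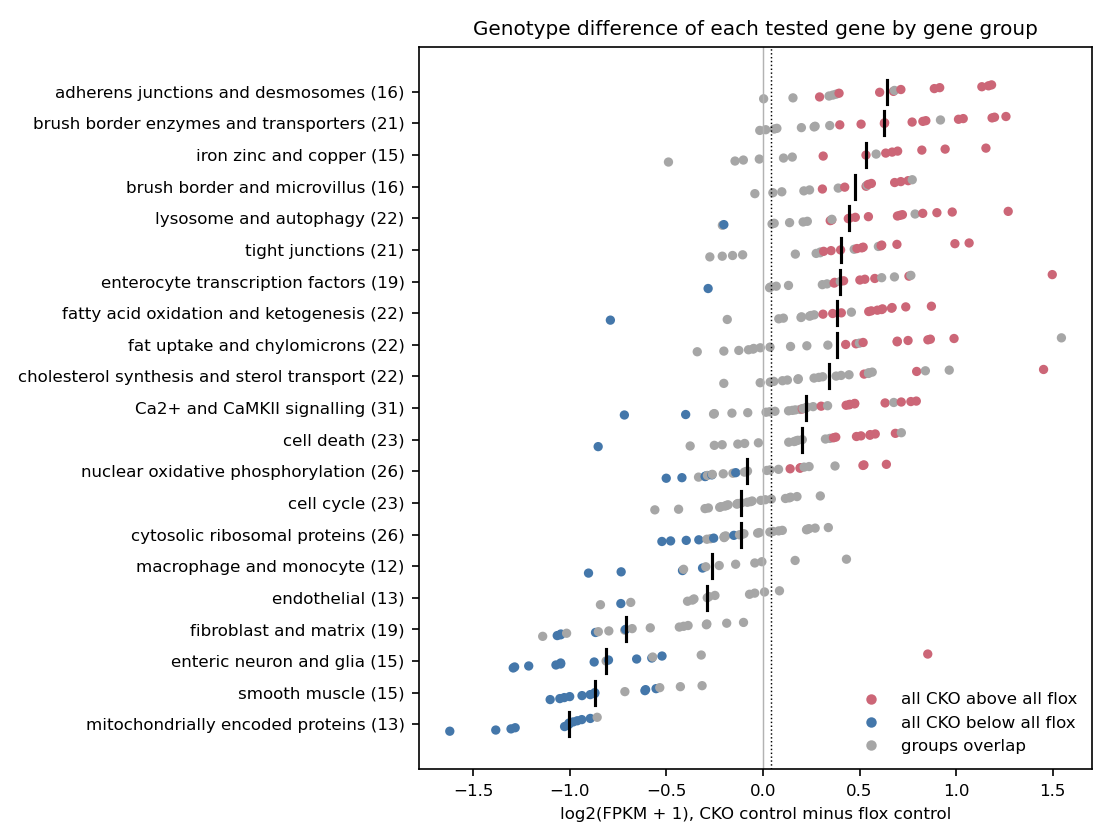
Difference between CKO control and flox control, in log2(FPKM + 1), for each tested gene of 21 gene groups, with the number tested in parentheses, the group median as a black bar and the median of all genes tested as a dotted line. Epithelial surface, junction and lysosome groups lie to the right with medians of 0.40 to 0.64, and stromal, neural and mitochondrially encoded genes lie to the left with medians of -0.71 to -1.004.

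On the lower side, the protein genes of the mitochondrial genome differed as a block. Of the 13 mitochondrially encoded protein genes, 12 had all CKO libraries below all flox libraries, and the median was -1.004. The genome is read as long precursors that are cut into messengers and transfer RNAs, and its proteins are core subunits of the respiratory chain. Genes of the mitochondrial genome took 14.3%, 11.1% and 13.04% of reads in flox control 1 to 3 and 6.24%, 6.76% and 5.11% in CKO control 1 to 3, or 12.8% ± 1.62 against 6.03% ± 0.843 (SD, n = 3). The most abundant, mt-Co1 of complex IV, had 41148, 30764 and 40162 FPKM in flox and 19112, 21616 and 15245 in CKO (-1.004 ± 0.28). The ATP synthase subunit mt-Atp6 had 1464, 948 and 1806 FPKM against 345, 462 and 538 (-1.62 ± 0.28), and mt-Co2 had 2508, 1502 and 1799 against 696, 946 and 682 (-1.30 ± 0.24). In mt-Co3 the groups overlapped, at 662, 1315 and 1141 FPKM against 414, 834 and 482. The transfer RNAs mt-Ty, mt-Te and mt-Tl2, named for the size of their change, stood at differences of -1.98, -1.77 and -1.57. Over all 32 tested genes of the mitochondrial genome, with the protein genes included, 18 had all CKO libraries below (56.25%) and none all above. The other transcripts thus did not all separate the groups.

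**Figure D3:**
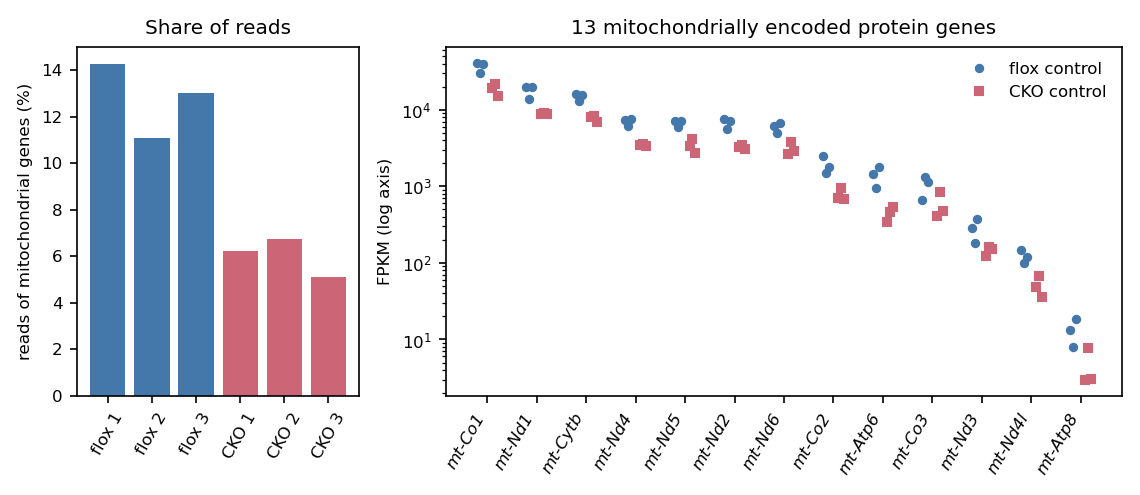
Left, percent of each library's reads that fell on mitochondrial genes, and right, FPKM (log axis) of the 13 mitochondrially encoded protein genes in flox control (circles) and CKO control (squares). The share is 11.1% to 14.3% in flox and 5.11% to 6.76% in CKO, and mt-Co3 is the single gene whose groups overlap.

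Nuclear genes of the same machinery stood in both directions. Of 26 nuclear oxidative phosphorylation subunits tested, 6 had all CKO libraries above and 6 all below (median -0.08). Without CKO control 3 the count below was 12 of 26, or 46.2%, against 19.3% of all genes. Sdha, of complex II, had 44.3, 62.1 and 61.5 FPKM in flox and 85.1, 87.3 and 87.7 in CKO (0.64 ± 0.16), and Atp5b, of the ATP synthase, had 143, 174 and 190 against 250, 238 and 236 (0.52 ± 0.15). Atp5o, of the same complex, had 58.4, 54.1 and 57.2 FPKM against 37.4, 43.5 and 45.6 (-0.42 ± 0.12). The machinery that transcribes and translates mitochondrial genes had 3 of 17 tested members above and 1 below (median 0.14). Ssbp1, the single-stranded DNA binding protein of mitochondria, was that 1 member below, at 4.52, 4.04 and 4.13 FPKM against 2.78, 3.03 and 3.10 (-0.40 ± 0.11). Of 22 mitochondrial ribosomal proteins, 2 were above and 4 below (median -0.11). The count below was 7 without flox control 3 (20.8% of all genes) or without CKO control 2 (15.2% of all genes). When libraries were scaled so that all other genes summed to the same total, 2140 genes had all CKO libraries above and 2071 all below. The higher genes were then 50.8% of those without overlap, against 63.3% as deposited, and the median of all genes was -0.02. Of the gene groups described here, cytokines and chemokines changed sign under that scaling, from a median of 0.01 to -0.06, and the others kept theirs.

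Genes of smooth muscle, fibroblasts and enteric neurons and glia stood lower in CKO. All of the 15 tested smooth muscle genes, all of the 19 fibroblast and matrix genes and 14 of the 15 enteric neuron and glia genes had a mean below flox. All 3 CKO libraries lay below all flox libraries for 11, 5 and 11 of them, with medians of -0.87, -0.71 and -0.81. Myh11, the smooth muscle myosin, had 81.1, 108 and 85.9 FPKM in flox and 71.8, 19.96 and 62.3 in CKO, and CKO control 2 was the lowest library by a wide margin. Summed over the smooth muscle list, FPKM was 1340 to 1675 in flox and 1153, 398 and 1044 in CKO control 1 to 3. Without CKO control 2 the 3 medians were -0.35, -0.40 and -0.50. Without CKO control 1 the fibroblast and matrix count below was 15 of 19 (18.1% of all genes), with a median of -0.96. Other cells of the gut wall did not all share this. Of 13 tested endothelial genes 11 had a mean below flox, and 1 had all CKO libraries below (median -0.29). The count with all below was 8 without CKO control 1 (18.1% of all genes) and 7 without flox control 3 (20.8% of all genes). Of 9 B and plasma cell genes and 4 T and cytotoxic lymphocyte genes none separated the groups (medians 0.15 and 0.10). Sox10, a factor of enteric glia, had 2.51, 2.62 and 1.91 FPKM in flox and 0.963, 0.341 and 1.28 in CKO (-0.87 ± 0.23). Ret, a receptor of enteric neurons that other gut cells also express, was the exception of its list, at 10.5, 15.04 and 22.8 FPKM against 28.2, 27.9 and 29.6 (0.85 ± 0.25). Tagln, a smooth muscle protein bound to actin, had 2.16, 2.07 and 2.06 FPKM against 1.28, 0.767 and 1.09 (-0.61 ± 0.15), and Postn, a matrix protein, had 17.3, 26.7 and 19.01 against 13.8, 5.43 and 11.2. The part of these cells in the higher level of epithelial genes was not tested. Of the 15 genes of the exocrine pancreas list, Prss1, Cela2a, Try4 and Try5 were at 0 in all 6 libraries. Another 3 were tested and none separated the groups. The whole list summed to 6.90 to 24.6 FPKM per library.

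Among single genes lower in CKO, Fendrr (chr8:121054882-121083110, minus strand), a long noncoding RNA of the mesenchyme, had the smallest p after Gm25637. It had 24.1, 21.8 and 20.6 FPKM in flox control and 10.7, 8.35 and 9.02 in CKO control (-1.17 ± 0.13, adjusted p = 0.0547, and 0.00332 in the fit over 12 libraries). How strand was treated in counting is not stated in the labels, so reads of genes on the other strand could be counted with it. Rspo1, a ligand that raises Wnt signals in crypts, had 6.75, 5.55 and 6.47 FPKM against 1.90, 0.644 and 4.39 (-1.30 ± 0.39). Hoxb4, which patterns the axis of the gut wall, had 4.14, 4.08 and 6.83 FPKM against 2.24, 1.22 and 1.71 (-1.13 ± 0.22), and Hoxa5 had 14.7, 16.2 and 13.3 against 9.11, 2.401 and 6.72. Lgals1, a lectin of stromal cells, had 75.3, 105 and 63.4 FPKM against 45.8, 18.7 and 34.0 (-1.33 ± 0.33). These 5 genes had no overlap between groups, and CKO control 2 was the lowest library for each. The precursors of Mir145a and Mir143, microRNAs of smooth muscle, stood at differences of -1.88 ± 0.59 and -1.33 ± 0.38, from libraries that were not made for small RNA. Hist3h2ba, a histone gene, had 3.34, 3.304 and 3.72 FPKM against 0.870, 0.226 and 0.568 (-1.54 ± 0.19). It passed the filter only through flox control, the group where it was high. Mapk1ip1, Ccdc107, Ints6l, Tspyl2, Mapk8ip3 and Lmntd2 stood lower, at differences of -0.89 to -0.74.

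Some genes of myeloid cells stood lower in CKO. Of 12 tested macrophage and monocyte genes, none had all CKO libraries above and 4 all below (median -0.26). Tyrobp and Fcer1g encode signalling adaptors of myeloid receptors. Tyrobp had 9.31, 11.5 and 11.4 FPKM in flox and 4.31, 5.61 and 5.96 in CKO (-0.90 ± 0.15, adjusted p = 0.0547, and 0.00974 in the fit over 12 libraries), and Fcer1g had 8.69, 11.1 and 8.40 against 6.72, 4.92 and 4.23 (-0.73 ± 0.18). Cfp, properdin of the complement system, had 7.42, 5.45 and 5.55 FPKM against 2.58, 1.76 and 2.41 (-1.13 ± 0.16). The receptor Csf1r, which macrophages need, had 77.2, 69.1 and 58.3 FPKM against 73.3, 67.8 and 61.95 and did not separate the groups. Of 12 tested cytokines and chemokines, 1 had all CKO libraries above and 1 all below (median 0.01), and of 15 genes of NF-kappaB and innate receptors 4 and 2 (median 0.16). Traf6, an adaptor of innate receptors, had 2.87, 3.28 and 3.94 FPKM against 5.13, 6.15 and 5.50 (0.60 ± 0.14), and Tnfaip3, a feedback inhibitor of NF-kappaB, had 1.71, 1.43 and 2.45 against 3.14, 3.35 and 4.12 (0.67 ± 0.17).

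In the cell death list, 8 of 23 tested members had all CKO libraries above and 1 all below, with a median of 0.20. Casp9, the initiator caspase of the mitochondrial path, had 5.43, 6.04 and 6.00 FPKM in flox and 9.88, 11.2 and 8.89 in CKO (0.69 ± 0.12, adjusted p = 0.0547, and 0.00868 in the fit over 12 libraries), and Apaf1, which activates it, had 5.27, 6.33 and 5.96 against 7.80, 9.83 and 9.64 (0.56 ± 0.13). Fadd, an adaptor of death receptors, had 5.58, 5.44 and 5.01 FPKM against 8.73, 8.10 and 7.27. Bax, which opens the outer mitochondrial membrane, was the member below, at 93.6, 68.2 and 95.3 FPKM against 39.8, 43.6 and 57.8 (-0.85 ± 0.20). Members of 1 path therefore differed in both directions. None of the 23 tested cell cycle genes and none of the 6 tested Paneth cell genes separated the groups (medians -0.11 and -0.63). In the Paneth cell list flox control 3 and CKO control 3 were high, at a summed 205 and 117 FPKM, against 16.7 to 45.5 in the other 4 libraries. Of 26 cytosolic ribosomal proteins tested, 6 had all CKO libraries below and none above (median -0.11), among them Rpl27 at 145, 143 and 144 FPKM in flox and 102, 96.7 and 112 in CKO (-0.48 ± 0.12). Without CKO control 2 the count below was 14 of 26, or 53.8%, against 15.2% of all genes.

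Counts and some medians moved when 1 library was left out. Without flox control 3, 32.2% of all genes tested had every CKO library above the other flox libraries and 20.8% had every CKO library below, since fewer libraries overlap less. On that background the counts above were 14 of 16 for adherens junctions and desmosomes, 17 of 21 for brush border enzymes and transporters, 13 of 16 for the microvillus, 18 of 22 for lysosomes, 16 of 21 for tight junctions and 18 of 22 for fatty acid oxidation. Without CKO control 2 (23.7% above and 15.2% below over all genes) the counts above for these lists were 11, 12, 10, 14, 11 and 14, and the counts below were 11 of 15 for smooth muscle, 5 of 19 for fibroblasts and matrix and 11 of 15 for neurons and glia. Without flox control 1, which had no Y-linked reads, 24.2% of all genes were above, and the first 6 of these lists counted 10, 12, 8, 13, 11 and 12. Without CKO control 3 (29.6% above and 19.3% below over all genes) they counted 12, 12, 8, 13, 13 and 13. The medians of these 6 lists stayed above 0 with any 1 library left out. Medians of other lists turned. The cell cycle median was 0.21 without CKO control 3 and 0.09 without flox control 2. Without flox control 3 the Paneth cell median was 0.48 over the 6 genes tested. It was -0.19 in the fit without that library, which applied the filter again, so its sign there depended on the genes kept. Without flox control 3 the counts above were 14 of 19 for enterocyte transcription factors, 19 of 31 for Ca2+ and CaMKII signalling and 8 of 15 for NF-kappaB and innate receptors.

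Differences followed the length of genes over the whole table. Among nuclear protein-coding genes tested, split into 5 equal groups by deposited length, all CKO libraries were above for 9.45% of the shortest genes (27 to 2357 bases), then 18.2%, 24.8% and 29.9%, and 37.3% of the longest (7226 to 41324 bases). The share with all CKO libraries below went from 18.6% in the shortest group to 8.16% in the longest. Median differences were -0.12, 0.04, 0.08, 0.13 and 0.17 from shortest to longest, and with each library left out in turn the shortest group stayed at -0.15 to -0.09 and the longest at 0.14 to 0.19. Among genes with a mean of at least 5 FPKM, split again by length, the share above was 10.2%, 23.0%, 32.0%, 39.8% and 48.2%. Long intergenic noncoding RNAs had 4.50% above and 18.5% below, and antisense RNAs 2.90% and 12.9%. In the NEC libraries the medians of the same groups were 0.11, 0.06, 0.02, -0.01 and -0.08, an order opposite to that in control tissue. The adherens junction and desmosome genes had a median length of 5506 bases, in a length group whose median difference was 0.13, against 0.64 for the list. Smooth muscle genes had a median length of 3948 bases, in a length group at 0.08, against -0.87 for the list, and mitochondrially encoded genes one of 784 bases, in a length group at -0.12, against -1.004. The part of length in the differences of single genes was not tested.

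**Figure D4:**
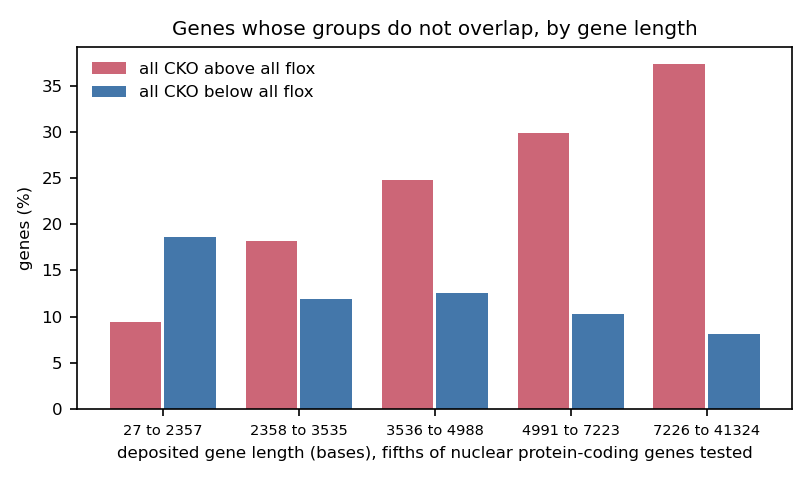
Percent of nuclear protein-coding genes whose 3 CKO control libraries were all above (red) or all below (blue) the 3 flox control libraries, in 5 equal groups of deposited gene length in bases. The share above goes from 9.45% to 37.3% with length and the share below from 18.6% to 8.16%.

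The NEC libraries, which the control comparison did not use, showed little of this difference. Of the 2906 genes with all CKO libraries above in control tissue, 46.9% were above flox in NEC, against 54.5% of all genes tested, with a median of -0.01. Of the 1685 genes with all CKO libraries below, 49.8% were below flox in NEC, against 45.4% of all genes tested, with a median of 0.00. Hnf4g had means of 51.0 FPKM in flox NEC and 53.5 in CKO NEC, a difference of 0.07, and Fendrr 9.93 and 9.62, a difference of -0.04. The 2 conditions are in tables that may have been scaled separately, so levels set across them carry that limit. A difference between genotypes is taken within 1 table. Among the 45 genes named by size or p at an adjusted p under 0.10, the 22 higher in CKO differed by 0.94 to 1.53 in control tissue and by -0.53 to 0.26 in NEC. The 23 lower in CKO differed by -1.98 to -0.74 in control and by -0.88 to 1.20 in NEC. Of the 45, 31 had the same direction in NEC, a count given without a matching share over all genes. The 45 were picked on the control libraries alone, a choice that by itself favours larger differences there. Several gene groups had medians of the same sign in both conditions. The NEC medians were -0.74 for smooth muscle, -0.40 for fibroblasts and matrix, -0.43 for neurons and glia, -0.85 for Paneth cells and -0.16 for macrophages and monocytes. They were 0.24 for cell death, 0.14 for fatty acid oxidation (21 of 22 genes above flox) and 0.11 for enterocyte transcription factors (14 of 19). The NEC medians were -0.02 for adherens junctions and desmosomes, 0.01 for brush border enzymes and transporters, 0.14 for lysosomes and 0.05 for mitochondrially encoded genes.

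**Figure D5:**
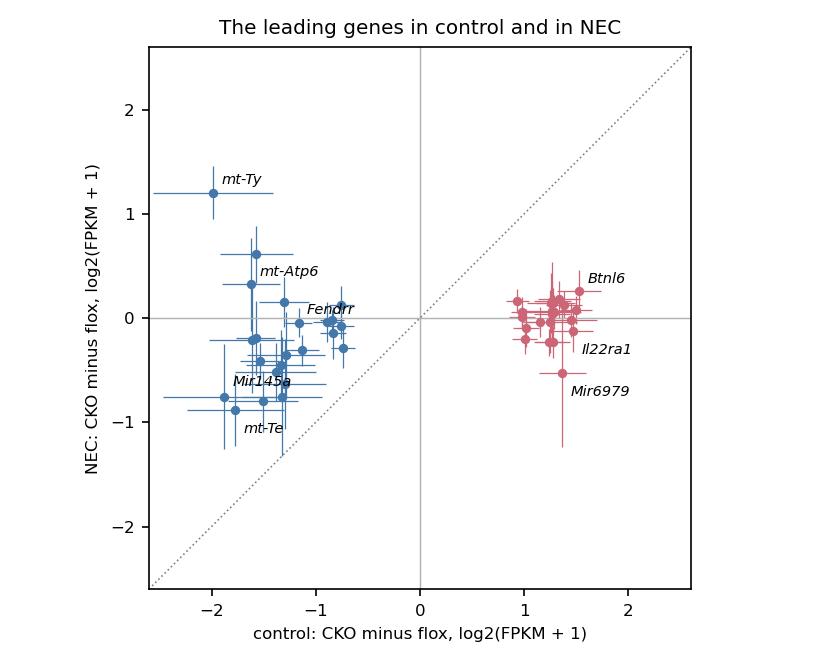
Difference between CKO and flox in control tissue (horizontal) and in NEC (vertical), both in log2(FPKM + 1), for the 45 leading genes, with bars of 1 standard error and a dotted line where both differences are equal. Genes higher in CKO in control (red) lie between -0.53 and 0.26 in NEC, and those lower (blue) between -0.88 and 1.20.

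The difference between the 2 genotype differences was tested over all 12 libraries. It passed an adjusted p of 0.05 for 181 of 14808 genes (1.22%). The NEC difference was above the control difference for 31 of them (0.209%) and below for 150 (1.01%). That count was 646 without flox control 3, 307 without CKO control 3, 28 without CKO NEC 3 and 0 to 2 without any 1 of the other 9 libraries. This test shares the control libraries with the comparison above. Il22ra1 had 7.43, 10.97 and 12.3 FPKM in flox control, 26.0, 32.5 and 30.4 in CKO control, 32.8, 40.5 and 39.4 in flox NEC and 25.5, 44.3 and 35.4 in CKO NEC. The NEC difference minus the control difference was -1.59 ± 0.30 (adjusted p = 0.0441). Flox control was therefore the low group for this receptor, and CKO NEC overlapped both CKO control and flox NEC. Timp3, an inhibitor of matrix proteases, had 2.26, 4.53 and 6.53 FPKM in flox control, 12.1, 11.5 and 9.90 in CKO control, 16.6, 12.5 and 16.4 in flox NEC and 9.86, 12.4 and 11.4 in CKO NEC. Atp7a, Fam83b and Sacm1l had the same form, with flox control the lowest group. Fendrr was the reverse, with 10.5, 8.63 and 10.7 FPKM in flox NEC and 10.8, 10.02 and 8.10 in CKO NEC beside its high level in flox control, and a NEC difference above the control difference by 1.12 ± 0.19 (adjusted p = 0.0370). Apoc1, an apolipoprotein, had means of 5.15 and 2.46 FPKM in flox and CKO control and of 0.573 and 1.29 in flox and CKO NEC.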

How the data were processed

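Whole small intestine RNA was isolated with Trizol and made into libraries with a NEBNext Ultra II kit, per the labels' protocols. The deposited values are FPKM, made by the authors in 2 tables, control and NEC. No source used here names the aligner, annotation, build or strand setting. Of the gene IDs, 54409 matched GENCODE M21 and 98.3% of these had the same start and end, so coordinates are GRCm38. FPKM times length gave whole reads, within 0.05, for 100% of values. In the control table, the sizes used for scaling were between 0.853 and 1.004 of the recovered totals, and in the NEC table between 0.957 and 1.056. The sizes were therefore not the recovered totals, and whether the 2 tables were scaled together was not tested.

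Genes reaching 1 FPKM in 3 or more of the 6 control libraries were tested on log2(FPKM + 1), computed from the deposited FPKM, with limma 3.58.1 in R 4.3.3 (moderated, with a variance trend, two-sided, Benjamini-Hochberg, threshold 0.05). The interaction used all 12 libraries. At the edge of the filter, 632 genes reached 1 FPKM in exactly 3 libraries (median of their means 1.04 FPKM) and 754 in exactly 2 (0.844). Of the 632, 104 reached it in all 3 flox control libraries and 38 in all 3 CKO control libraries. These entered the test through 1 group only. Gm25637 and Hist3h2ba were among the 104, and Atp7a was among the 38. Named were Piezo1, the Camk2 genes, and in each direction the 15 genes of largest change and 10 of smallest p, up to 4 per list, and 5 interaction genes per direction, without predicted genes. As 1 gene passed, this rule was repeated at an adjusted p under 0.10, a choice made after seeing the data. Members and lists were chosen with earlier results of these data known. Genes outside the rule are given as values that illustrate their list. Tests were checked on simulated data. Some genes that the rule names are not reported here.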

Additional observations from a re-analysis of the deposited data

Results flagged for a closer look

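The genotype difference differed between NEC and control for 181 genes by limma's test of the interaction over 12 libraries. With the NEC difference above the control difference, the largest values (NEC minus control, log2) were 2.85 for Mir7213, which rests on 0 to 5 reads per library, 1.79 for Lsmem2, 1.38 for Apoc1, 1.12 for Fendrr and 1.11 for Bola2. With it below, they were -1.64 for Timp3, -1.59 for Il22ra1, -1.52 for Atp7a, -1.50 for Fam83b and -1.47 for Sacm1l. Lsmem2 had 2.51, 3.298 and 3.004 FPKM in flox control and 1.09, 0.376 and 2.46 in CKO control, against 0.594, 1.13 and 0.776 in flox NEC and 2.25, 2.59 and 2.49 in CKO NEC. Bola2 had 5.53, 5.09 and 5.67 FPKM in flox control and 3.02, 2.76 and 4.29 in CKO control, against 2.48, 2.66 and 3.17 in flox NEC and 5.39, 3.71 and 4.33 in CKO NEC. For both genes flox was higher in control tissue and CKO in NEC, with no overlap within either condition.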

How the results depend on the processing

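For the control comparison (1 gene called), the count was 1 with a pseudocount of 0.1, quantile normalization, equal library medians, scaling without mitochondrial genes or no variance trend. It was 0 with no filter, 760 at a mean of at least 5 FPKM, 2200 with array weights, 2051 with all 12 libraries in 1 fit, 360 by limma-voom on recovered reads and 2140 at an adjusted p under 0.10. Leaving out 1 library gave 0 to 830. For the interaction (181 genes), it was 173 with the other pseudocount, 247 with quantile normalization, 41 with no filter, 417 at a mean of at least 5 FPKM, 973 with array weights and 0 to 646 with 1 library left out. The cause of these moves was not tested. With a replicate block the counts were 903 and 170. Same-numbered flox and CKO libraries had correlations of their deviations of 0.14, -0.03 and 0.37. Those of different numbers ran from -0.32 to 0.28, so the 0.37 of number 3 was the largest. The main fit did not take the numbers to pair samples, and a shared origin of same-numbered libraries was not tested.

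Among the 125 differences of single genes recomputed under the alternatives, 10 of 2103 values turned direction, in 5 genes near 0 or set by 1 library. Piezo1 turned with quantile normalization (0.037), and leaving out 1 library gave -0.22 to 0.031. Gata4 turned with array weights (-0.0054) and without flox control 3, with a range of -0.26 to 1.26 over left-out libraries. Fabp1 turned without flox control 3, with a range of -1.24 to 3.26. Camk2b turned without flox control 1 (-0.019) or CKO control 3 (-0.19), with a range of -0.19 to 0.40. Csf1r turned without flox control 1 (0.087), flox control 2 (0.0084) or CKO control 3 (0.056), with a range of -0.11 to 0.087. Depth limits genes near 1 FPKM, and 3 libraries per group limit every p-value.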
